A study of Mus musculus with 12 samples.

Results

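The mammalian apparent LTR retrotransposons (MaLR) are a family of endogenous retroviral repeats, and they were examined here in RNA and ribosome footprints of juvenile mouse testes with and without Maelstrom. The members were every repeat copy that the deposited count table assigns to the repeat family ERVL-MaLR, summed over the subfamily names. There were 454137 such copies of 5138235 repeat copies in all (8.84%), in 108 of 1554 subfamilies. The MT group held 184935 copies in 20 subfamilies, the ORR1 group 184676 copies in 29 subfamilies, and the older MLT group 84526 copies in 59 subfamilies. Of the 108 subfamilies, 3 had no count in any library. The table names each copy by its subfamily and a number, and gives neither its place in the genome nor its length.

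MaLR elements carry no envelope gene and code for no protein that could move them, so they are thought to have spread with proteins supplied by related ERVL retroviruses. A copy is mostly a solitary long terminal repeat (LTR), which holds the element's promoter and polyadenylation signal, while copies named with the suffix "-int" come from the internal part between the LTRs. MT elements of the mouse are known for driving chimeric transcripts in oocytes, among them an oocyte-specific form of Dicer1 that starts in an MTC LTR. Within MT and ORR1, subfamilies with the letter A are the youngest, and later letters are older.

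The study compared Mael-/- mice, which lack a protein required for piRNA production and for repression of the retrotransposon LINE-1 in male germ cells, with Mael+/- controls. Whole testes of C57BL/6 animals were taken at postnatal day 16, and each lysate gave a ribosomal RNA-depleted total RNA library and a library of fragments protected from nuclease by ribosomes. There were 3 biological replicates of each genotype and assay, hence 12 libraries. All lysates were made with cycloheximide, which holds ribosomes on RNA, and the controls kept 1 functional copy of Mael.

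Mael RNA was 5045, 4314 and 3800 counts in Mael+/- replicates 1 to 3, and 1, 2 and 0 counts in Mael-/- replicates, as the labels state. Gene counts summed to 13697267 to 27462358 per RNA library and 7609932 to 13233565 per footprint library, and MaLR copies took 48214 to 76266 and 30601 to 55482 counts of their own. The markers of Sertoli cells, spermatogonia and meiotic cells were all present, as a whole testis should have. The first Mael+/- extract stood apart. Its 11 measured markers of pachytene spermatocytes summed to 1461 counts per 1000000 gene counts (CPM) in RNA, against 563 and 579 CPM in the other Mael+/- libraries and 468 to 558 CPM in Mael-/-. In its footprints the same sum was 2213 CPM, against 683 to 926 CPM in the other 5 libraries. None of these genes was at 0 in all libraries. In RNA 0 of 9 passed the test, beside 17 of all 14685 genes, and in footprints 0 of 8, beside 8 of all 13500. The first Mael-/- RNA library was the smallest. In whole tissue, fewer cells of a type and less RNA per cell cannot be told apart.

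MT was the most abundant MaLR group in RNA, ORR1 followed closely, and MLT was far below both. CPM include the library's TMM scaling factor, which was set on the genes. Whether the reads came from the elements or from genes that hold a copy was not tested, since positions are not given. MT summed to 1408, 1168 and 1294 CPM in Mael+/- RNA replicates 1 to 3 and to 1690, 1291 and 1321 CPM in Mael-/- RNA. ORR1 summed to 1281, 1035 and 1126 CPM in Mael+/- and 1431, 1127 and 1152 CPM in Mael-/- RNA. MLT summed to 352, 271 and 294 CPM in Mael+/- and 387, 295 and 309 CPM in Mael-/- RNA. In each group the highest value was that of the first Mael-/- library, and the other Mael-/- libraries lay within the range of the controls.

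In footprints the order of the groups was the same. MT summed to 1998, 1829 and 1472 CPM in Mael+/- and 1915, 1917 and 1913 CPM in Mael-/- footprints. ORR1 summed to 1894, 1617 and 1318 CPM in Mael+/- and 1740, 1729 and 1750 CPM in Mael-/- footprints. For MLT the values were 618, 512 and 427 CPM in Mael+/- and 544, 563 and 544 CPM in Mael-/-. The Mael-/- replicates were nearly identical to each other and lay inside the wider range of the Mael+/- replicates.

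**Figure D1:**
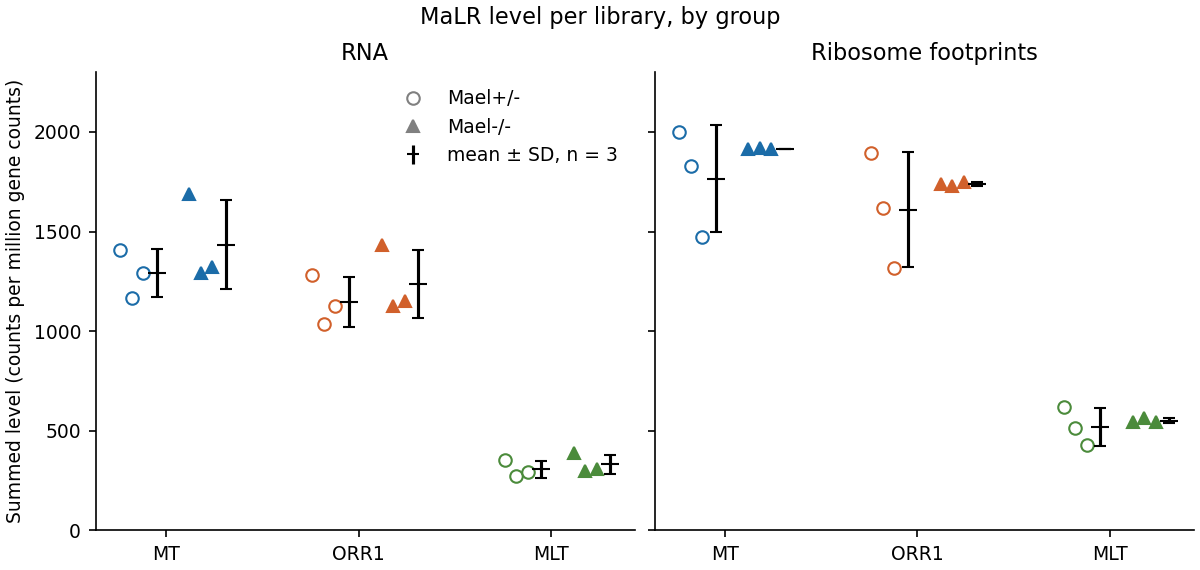
Summed level of the MT, ORR1 and MLT copies in each library, in CPM of gene counts, for RNA (left) and ribosome footprints (right). Open circles are Mael+/- and filled triangles Mael-/- libraries, and bars give the mean ± SD of 3. Both genotypes overlap in every group, MT in RNA for example at 1168 to 1408 CPM in Mael+/- and 1291 to 1690 CPM in Mael-/-.

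The difference between genotypes was small in all 3 groups. The mean of MT RNA was 1290 ± 120 CPM (SD, n = 3) in Mael+/- and 1434 ± 222 CPM in Mael-/-, a ratio of 1.11. For ORR1 the means were 1147 ± 125 and 1237 ± 169 CPM (ratio 1.08), and for MLT 306 ± 41.8 and 330 ± 49.6 CPM (ratio 1.08). In footprints, the ratios were 1.08 for MT, 1.08 for ORR1 and 1.06 for MLT. All of these differences were below the SD of at least 1 genotype. Single libraries decided their size: the log2 ratio of MT in RNA was 0.15 with all libraries, 0.018 without the first Mael-/- library and 0.22 without both libraries of the first Mael+/- extract. The same ratio in footprints was 0.12 with all libraries and 0.0014 without Mael+/- replicate 3. The related families gave ratios in RNA of 1.10 (ERVL), 1.12 (ERVK) and 1.08 (ERV1), while LINE-1 copies gave 1.34 and all repeats together 1.14.

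MT and ORR1, with nearly equal numbers of copies, were also close in level. The ratio of MT to ORR1 lay between 1.10 and 1.18 in the 6 RNA libraries and between 1.05 and 1.13 in the 6 footprint libraries, so MT was higher in each of the 12. Without the copies that had at least 100 footprint counts and 0 RNA counts, the footprint ratio was 0.988 to 1.03. MT was then below ORR1 in Mael+/- replicates 1 and 3. That limit kept ORR1A1-int_814, an ORR1 copy with 3671 footprint counts and 1 RNA count. The ratio of MT to ORR1 without this copy was not computed. In RNA the ratio averaged 1.13 ± 0.0253 (SD, n = 3) in Mael+/- and 1.16 ± 0.0199 in Mael-/-, and these ranges overlapped. In footprints it was 1.10 ± 0.0405 and 1.10 ± 0.00774. MaLR copies made up 2.61 to 3.11% of all repeat counts in RNA and 2.67 to 3.10% in footprints, although they are 8.84% of the copies. This was not particular to MaLR. RNA per 10000 copies was 63.2 CPM in MaLR and 46.9 CPM in LINE-1, both below all repeats at 190 CPM. ERVL (88.7 CPM), ERVK (103 CPM) and ERV1 (127 CPM) were below all repeats as well.

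At the level of subfamilies, no MaLR subfamily passed the test in RNA. Of the 87 MaLR subfamilies that passed the filter on low counts, 0 reached an adjusted p under 0.05 in edgeR's quasi-likelihood test over all 1118 subfamilies tested, where 0.894% of all subfamilies were called. At an unadjusted p under 0.05 the count was 0 of 87, against 61 of 1118 subfamilies (5.46%) in the whole table. DESeq2 called 0 as well. The 95% confidence interval stayed within a 2-fold change in either direction for 75 of the 87. The fitted log2 fold changes ran from -0.46 to 0.91 (MLT1E2-int, with 48 counts in all), with a median of 0.15 beside 0.10 over all subfamilies tested. They were positive for 77 of 87, beside 69.9% over the whole table. Without the first Mael-/- RNA library, 50 of 88 were positive and the median was 0.011, so this lean rested on that library.

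The MT subfamilies stood on the positive side together, and all of them by little. All 20 passed the filter, and their log2 fold changes ran from 0.0015 to 0.23 with a median of 0.16, and 0 of 20 were called. Without the first Mael-/- library, 12 of 20 were positive. Of the ORR1 subfamilies, 27 of 28 tested were positive, with a median of 0.11 and a range of -0.0046 to 0.48. The MLT subfamilies, with the fewest counts, spread widest, from -0.46 to 0.91, with 30 of 39 positive and a median of 0.16.

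**Figure D2:**
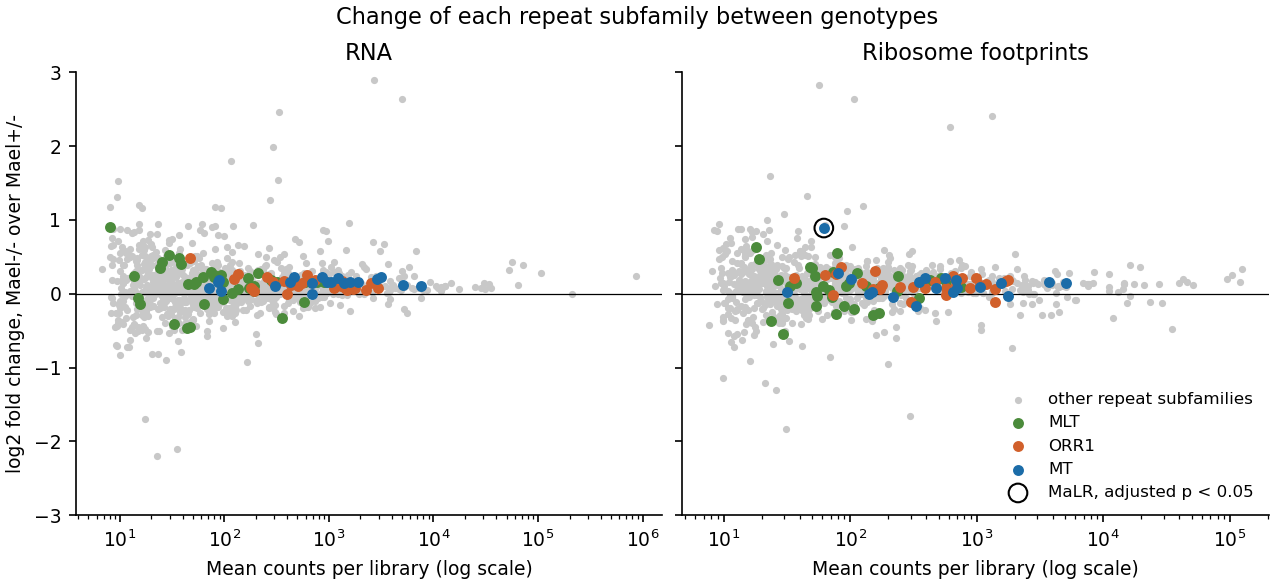
Log2 fold change between Mael-/- and Mael+/- testes against the mean count per library (log scale) for every repeat subfamily tested, in RNA (left) and footprints (right). MaLR subfamilies are coloured by group and all others are grey; MaLR points lie between -0.46 and 0.91 in RNA, and the circled point in footprints is MTEb-int at 0.89.

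MTD was the most abundant MaLR subfamily. Its RNA level was 357, 295 and 328 CPM in Mael+/- replicates 1 to 3 and 429, 309 and 321 CPM in Mael-/- replicates, with a log2 fold change of 0.11 (SE 0.17, adjusted p of 1). MTC, the subfamily whose LTR serves as the oocyte promoter of Dicer1, came next with 246, 189 and 222 CPM in Mael+/- and 272, 213 and 228 CPM in Mael-/- RNA. Its log2 fold change was 0.12 (SE 0.17). Both genotypes overlapped in MTD and in MTC. Dicer1 itself had a log2 fold change of -0.16 in RNA (SE 0.084, adjusted p = 0.966), with 247 to 275 CPM in Mael+/- and 228 to 250 CPM in Mael-/-.

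MTEa had the largest fitted log2 fold change of the 20 MT subfamilies, 0.23 (SE 0.17, adjusted p of 1). It had 140, 120 and 125 CPM in Mael+/- and 167, 146 and 141 CPM in Mael-/- RNA, so that all Mael-/- values lay above the Mael+/- values, the lowest of them by less than 1 CPM. A single copy, MTEa_10998, gave 28.3% of its RNA counts. Without the highest copy of each subfamily the log2 fold change of MTEa was 0.15, below that of MTA_Mm at 0.20, and without the first Mael-/- library it was 0.15. MTA_Mm, the youngest MT subfamily, had 129, 106 and 120 CPM in Mael+/- and 158, 125 and 124 CPM in Mael-/- RNA, and a log2 fold change of 0.20 (SE 0.18). MTE2a and MTE2b followed at 79.1 ± 7.67 and 66.2 ± 9.37 CPM in Mael+/-, and 88.6 ± 13.8 and 74.3 ± 14.4 CPM in Mael-/-.

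The 6 most abundant ORR1 subfamilies by RNA formed a close series of levels. Others were far lower, such as ORR1G at 13.1 CPM on average. ORR1A2, the most abundant, had 144, 113 and 122 CPM in Mael+/- and 152, 124 and 125 CPM in Mael-/- RNA, with a log2 fold change of 0.08 (SE 0.18). ORR1D1 had 120, 98.4 and 103 CPM in Mael+/- and 139, 111 and 107 CPM in Mael-/- RNA (log2 fold change 0.15, SE 0.18). ORR1B1, ORR1F, ORR1E and ORR1A4 followed, at 99.8, 79.4, 75.8 and 67.3 CPM on average over the 6 RNA libraries. Neighbours in this order overlapped in their ranges. Of the MLT subfamilies, MLT1A0 (41.2 CPM), MLT1D (39.5 CPM), MLT1B (33.9 CPM) and MLT1C (26.5 CPM) were the highest.

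The subfamilies at the ends of the RNA range were all small, with at most 283 RNA counts over the 6 libraries. The 3 highest log2 fold changes among those with at least 20 counts per library were 0.52 for MLT1H-int (SE 0.32), 0.49 for MLT1F-int (SE 0.31) and 0.48 for ORR1F-int (SE 0.28). The 3 lowest were -0.46 for MLT1G3-int (SE 0.29), -0.45 for MLT1E (SE 0.36) and -0.41 for MLT1-int (SE 0.33). None was called. In MLT1G3-int, 80.8% of the RNA counts came from 1 copy, and its value was -0.082 without the highest copy of each subfamily. Without the first Mael+/- library the 3 lowest moved to -0.16, -0.095 and -0.16, and without the first Mael-/- library the 3 highest moved to 0.30, 0.23 and 0.34. Leaving out Mael-/- replicate 2 moved MLT1E to -0.14 and MLT1-int to -0.23, and leaving out Mael-/- replicate 1 moved MLT1E to -0.81.

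In footprints, MTEb-int was the only MaLR subfamily called, and it rose in Mael-/-. Of 84 MaLR subfamilies tested, this was 1 (1.19%), beside 1.82% of all 1045 subfamilies tested. MTEb-int is the internal part of the MTEb elements, with 635 copies, of which 131 had any count. Its footprints were 4.99, 5.43 and 2.83 CPM in Mael+/- replicates 1 to 3 and 7.49, 8.08 and 8.78 CPM in Mael-/- replicates. All Mael-/- values lay above all Mael+/- values. The log2 fold change was 0.89 (SE 0.23, edgeR adjusted p = 0.00852).

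Its RNA was 3.94, 3.47 and 3.59 CPM in Mael+/- and 4.88, 3.57 and 4.19 CPM in Mael-/-, with a log2 fold change of 0.19 (SE 0.22). The change of footprints beyond that of RNA, the interaction of genotype and assay, was 0.70 for MTEb-int (SE 0.32, adjusted p = 0.997). The call in footprints rested on 372 counts in all, of which 1 copy gave 21.5%. It held without that copy (adjusted p = 0.0213) and was lost with DESeq2 (adjusted p = 0.11) and without Mael+/- footprint replicate 3 (log2 fold change 0.63, adjusted p = 0.248) or any 1 of the Mael-/- footprint libraries. In footprints edgeR estimated 1 common spread for all subfamilies, so the p-values there rest on that single estimate.

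The remaining subfamilies with the largest fitted values in footprints, among those with at least 20 counts per library, were not called. On the positive side these were MLT1I, at 0.55 (SE 0.22, adjusted p = 0.324), and ORR1B2-int, at 0.37 (SE 0.21). MLT1I had 7.21, 5.95 and 6.05 CPM in Mael+/- and 10.1, 9.18 and 8.78 CPM in Mael-/- footprints, without overlap. On the negative side they were MLT1J1 (-0.54, SE 0.30), MLT1G3-int (-0.36, SE 0.32) and MLT1J (-0.28, SE 0.20). The median over the 84 MaLR subfamilies was 0.11, beside 0.13 over all subfamilies. Of the 84, 64 were positive, beside 73.8% over the whole table. The count of positive MaLR subfamilies fell to 44 of 85, and their median to 0.0027, without Mael+/- footprint replicate 3.

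No MaLR subfamily passed the test for a difference between genotypes in the ratio of footprints to RNA. Of 87 tested, 0 were called by the interaction, beside 0% of all 1145 subfamilies, and 4 of 87 (4.60%) had an unadjusted p under 0.05, beside 36 of 1145 (3.14%). DESeq2 also called 0, and so did the fit with each extract as a term. The 4 were MTEb-int (0.70), MLT1I (0.63), MLT1H-int (-0.79) and MLT1F1-int (-1.96, SE 0.93). Of the 87, 69 had a 95% confidence interval within a 2-fold change. In 64 of the 84 subfamilies tested in both assays, the fitted changes of RNA and footprints had the same sign. Most changes were positive in each assay (77 of 87 in RNA, 64 of 84 in footprints), so many shared signs follow from that alone.

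Across subfamilies, by contrast, the ratio of footprint CPM to RNA CPM differed between the subfamilies with early and later letters. Each ratio was taken within an extract, and LTR subfamilies with at least 300 RNA counts were used. Per the study's methods, genes were counted over whole mRNAs in RNA but only over coding sequence in footprints. Each assay was scaled by its own gene counts, so a ratio of 1 has no meaning by itself. The ratios serve only to compare subfamilies with each other. Per the methods, footprints were also shorter than the RNA reads, and how reads were assigned to similar copies is not given. Whether this lowers the footprint counts of subfamilies with more similar copies was not tested, so the ratios are no measure of ribosome occupancy. In ORR1, the ratio averaged 0.34 ± 0.041 (SD over the 6 extracts) for ORR1A0, 0.60 ± 0.13 for ORR1A1, 0.84 ± 0.10 for ORR1A2, 0.96 ± 0.086 for ORR1A3 and 1.04 ± 0.12 for ORR1A4. It was 1.43 ± 0.17 for ORR1B1, 1.59 ± 0.23 for ORR1B2, 2.04 ± 0.35 for ORR1C1, 1.76 ± 0.18 for ORR1C2, 1.6 ± 0.21 for ORR1D1 and 1.82 ± 0.27 for ORR1D2. For ORR1E, ORR1F and ORR1G it was 2.33 ± 0.34, 1.82 ± 0.31 and 2.39 ± 0.44, so that the later subfamilies did not follow the order of their letters. The extracts of the 5 ORR1A subfamilies, the highest at 1.15, did not overlap with those of ORR1B1 or any later ORR1 subfamily, the lowest at 1.23, whereas neighbours from ORR1C1 to ORR1G overlapped.

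The MT LTRs gave a similar division with more overlap. MTA_Mm had a ratio of 0.52 ± 0.073, MTB 0.79 ± 0.14 and MTB_Mm 1.03 ± 0.13. The older LTRs were at 1.66 ± 0.17 (MTC), 1.54 ± 0.25 (MTD), 2.19 ± 0.49 (MTE2a), 1.57 ± 0.24 (MTE2b), 1.14 ± 0.15 (MTEa) and 1.68 ± 0.21 (MTEb). MTEa, at 0.97 to 1.37 over the extracts, overlapped with MTB_Mm as well as with MTE2b and MTEb.

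Summed over the classes, the 5 ORR1A subfamilies had a ratio of 0.85 ± 0.086 and the 9 subfamilies from ORR1B1 to ORR1G 1.77 ± 0.22. Within each extract the later class was 1.97 to 2.19 times the earlier one, in 6 of 6 extracts. For MT, the 3 LTR subfamilies of the letters A and B were at 0.68 ± 0.094 and the 6 of the letters C to E at 1.58 ± 0.21, a difference of 2.12 to 2.44 times in 6 of 6 extracts. The genotypes overlapped: in ORR1 the factor was 2.06, 2.19 and 2.06 in the Mael+/- extracts and 1.97, 2.09 and 2.13 in the Mael-/- extracts. The classes were drawn after the values had been seen, so they are a description and were not tested. The 24 MLT LTR subfamilies with enough counts together had a ratio of 1.62 ± 0.21, and single subfamilies ran from 0.73 (MLT1G3) to 2.64 (MLT1E3).

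**Figure D3:**
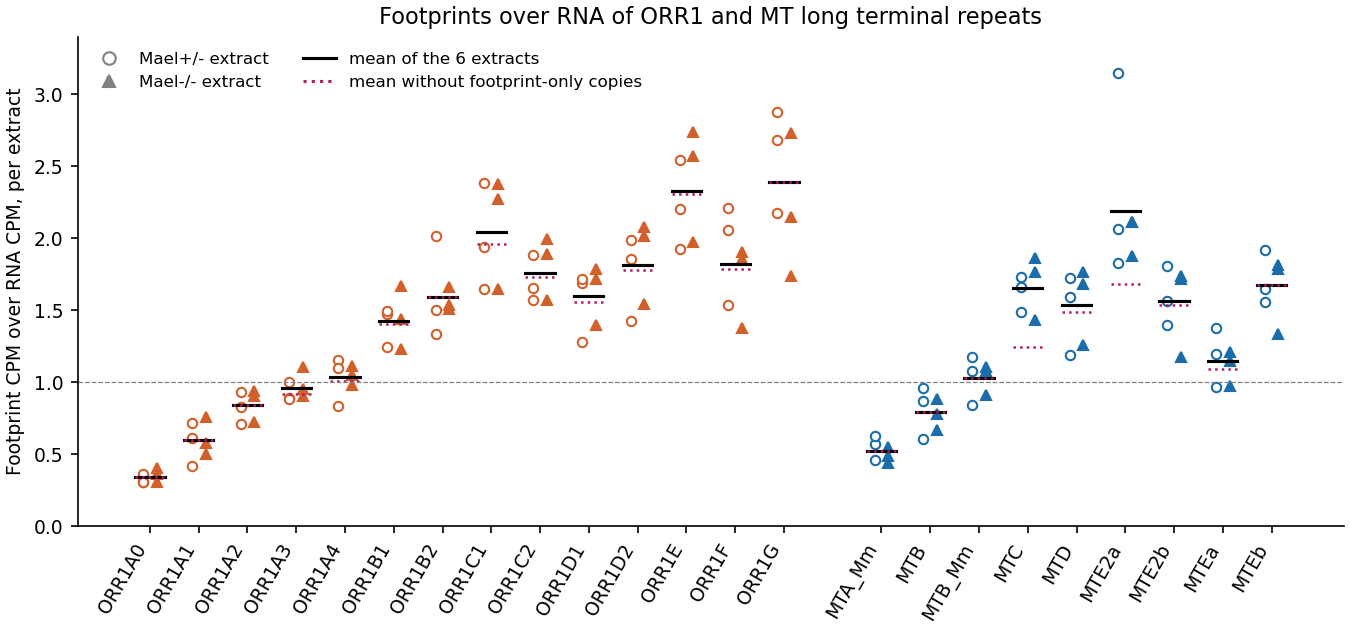
Ratio of footprint CPM to RNA CPM for the ORR1 (orange) and MT (blue) LTR subfamilies, with 1 point per extract (open circles Mael+/-, filled triangles Mael-/-). Black lines give the mean of 6 extracts and dotted lines the mean without copies that had footprints but no RNA; the means run from 0.34 (ORR1A0) to 2.39 (ORR1G), and the dotted line falls well below the black one for MTC and MTE2a.

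The RNA level per copy, summed over the classes, was higher in the earlier class. Lengths are not given, so levels were set per 10000 copies and not per kb, and they still depend on how long the copies are. The ORR1A subfamilies together had 87.4 CPM per 10000 copies in RNA and the later ORR1 subfamilies 44.8. In footprints the same classes were nearly level, with 74.0 and 78.7 CPM per 10000 copies. For MT, the letters A and B had 84.4 CPM per 10000 copies and the letters C to E 65.1 in RNA, and 57.1 and 101 in footprints. Single subfamilies overlapped between the classes: in RNA ORR1A1 (62.1 CPM per 10000 copies) was below ORR1B2 (66.8), and MTC (83.4) was above MTA_Mm (81.4) and MTB_Mm (77.1). The share of copies with any count was 17.2 to 20.9% in the ORR1A and 14.7 to 16.7% in the later ORR1 subfamilies, and 20.1 to 23.4% in the MT LTRs of the letters A and B and 14.9 to 19.3% in those of C to E.

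Internal copies had more RNA per copy than LTRs. MT internal copies had 122 CPM per 10000 copies in RNA and MT LTRs 68.2, and ORR1 internal copies had 165 and ORR1 LTRs 53.4. In 8 of 9 MT and 11 of 12 ORR1 subfamilies whose LTR and internal part both had at least 300 RNA counts, the internal part was the higher. Internal copies took 15.9 to 17.4% of MT counts and 24.3 to 26.6% of ORR1 counts in the RNA libraries, and 14.6 to 15.3% and 22.1 to 23.8% in the footprint libraries. The ratio of footprints to RNA was 1.22 ± 0.19 for MT internal copies and 1.40 ± 0.19 for MT LTRs, and 1.26 ± 0.18 against 1.47 ± 0.17 for ORR1. Within an extract the internal value was 0.87 ± 0.049 of the LTR value for MT and 0.86 ± 0.039 for ORR1, and below it in 6 of 6 extracts for both. This held for the sums and not for most subfamilies, since the internal part was the lower in 4 of 9 MT and 5 of 12 ORR1 pairs.

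Counts were spread over many copies, most of them with very few. Of 454137 MaLR copies, 53770 (11.8%) had an RNA count and 52829 (11.6%) a footprint count, with a median of 2 counts over all 6 libraries among those. The 10 highest copies gave 5.66% of MaLR RNA counts the 100 highest 15.9% and the 1000 highest 38.0%. In footprints these shares were 7.39%, 15.5% and 32.7%. With MT, ORR1 and MLT taken apart, the 100 highest copies gave 21.6%, 23.7% and 28.3% of the RNA counts of their group.

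MTEa_10998 was the highest MaLR copy in RNA. It had 741, 968 and 864 counts in Mael+/- replicates and 613, 980 and 1191 counts in Mael-/- replicates, or 33.4 ± 1.77 and 45.5 ± 2.69 CPM, so that after scaling all Mael-/- values lay above the Mael+/- values. Its log2 fold change was 0.45 (SE 0.19), which was not called (edgeR adjusted p = 0.434 over all 17404 copies tested). The next were MTD_4659, ORR1B2_5684 and ORR1A3_1796. ORR1B2_5684 gave 31.6% of the RNA counts and 33.0% of the footprint counts of its subfamily, with 461, 485 and 388 RNA counts in Mael+/- and 233, 352 and 544 in Mael-/-. MTB_Mm-int_176 gave 79.7% of the RNA counts of MTB_Mm-int, and MTEa-int_233 42.5% of those of MTEa-int. ORR1B1-int_2567 and MTEa_7764 completed the 8 highest copies, and none of the 8 was called.

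Among single copies, 8 MaLR copies were called in RNA, 4 higher and 4 lower in Mael-/-. They were 8 of 1004 MaLR copies tested (0.797%), beside 1.71% of all 17404 repeat copies tested. Of all copies, 1.61% were called higher and 0.0977% lower, so that the lower calls were 4 of 17 in the table. In footprints, 2 of 287 MaLR copies tested were called, both lower, beside 0.817% of all 5511 copies, of which 0.563% were higher and 0.254% lower. The copies that passed the filter on low counts were a small part of all members.

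Both copies called in footprints were ORR1F copies, and both were called in RNA as well. ORR1F_21223 had 90, 19 and 35 RNA counts in Mael+/- and 0 in each Mael-/- library, at least 38.3-fold lower when 3 counts over the group are taken as the floor (edgeR adjusted p = 2.2e-05). Its footprints were 274, 36 and 58 counts in Mael+/- and 0 in each Mael-/- library, at least 142-fold lower (adjusted p = 8.1e-05). ORR1F_21225 had 97, 18 and 26 RNA counts in Mael+/- and 0 in all Mael-/- libraries, at least 37.5-fold lower (adjusted p = 6.1e-05). In footprints it had 167, 27 and 36 counts against 1, 0 and 1, a ratio of Mael+/- to Mael-/- of 133 (95% counting interval 36.4 to 1103).

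ORR1A2_13576 had the same pattern in RNA, with 139, 26 and 19 counts in Mael+/- and 0 in every Mael-/- library, at least 48.9-fold lower (adjusted p = 9.9e-05). Its footprints were 45, 2 and 13 counts in Mael+/- and 2, 0 and 0 in Mael-/-. MLT1A1_7861 fell less, from 133, 15 and 39 counts to 1, 12 and 17 RNA counts, with a log2 fold change of -2.42 (SE 0.58, adjusted p = 0.0227) and overlapping genotypes. All 4 copies were highest in the first Mael+/- library, the one with the high pachytene markers. Without that library the first 3 were still called, with log2 fold changes of -7.54, -7.25 and -7.28, whereas MLT1A1_7861 was not (-1.09, adjusted p = 0.288). The limits rested on that extract and became at least 20.5-fold for ORR1F_21223, 16.7-fold for ORR1F_21225 and 17.1-fold for ORR1A2_13576 in RNA without it. In footprints they became at least 55.2-fold for ORR1F_21223 and a ratio of 55.5 (interval 14.7 to 468) for ORR1F_21225. In RNA, MLT1A1_7861 was also not called by DESeq2 (adjusted p = 0.69) or without the first or the second Mael-/- library (adjusted p = 0.0933 and 0.0607). Mael is the gene deleted in these mice, and its footprints were 1294, 660 and 863 counts in Mael+/- and 0, 0 and 7 in Mael-/-. Whether any of these copies lie within Mael was not tested, since the table holds no positions.

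The copies that rose were 3 internal copies of the young ORR1A subfamilies and 1 MTB LTR. ORR1A2-int_1852 had 13, 14 and 14 RNA counts in Mael+/- and 36, 59 and 58 in Mael-/-, without overlap, a log2 fold change of 2.24 (SE 0.30, adjusted p = 3.1e-05). Its footprints were 1, 2 and 1 counts in Mael+/- and 10, 11 and 11 in Mael-/-, too few for the test. It was the only copy called higher that had a mean of at least 20 counts. The 3 others were named after their values were seen.

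ORR1A4-int_332 had 0 RNA counts in each Mael+/- library and 10, 11 and 25 in Mael-/-, at least 19.2-fold higher (adjusted p = 0.000114). Its footprints were 0 in each Mael+/- library and 3 in each Mael-/- library. ORR1A1-int_194 had 1, 0 and 2 RNA counts in Mael+/- and 14, 14 and 22 in Mael-/-, a ratio of 20.9 (95% counting interval 6.75 to 104.7, adjusted p = 0.000219). MTB_Mm_2298 had 3, 5 and 4 counts in Mael+/- and 11, 14 and 27 in Mael-/- (log2 fold change 2.38, SE 0.48, adjusted p = 0.00394). In all 4 copies each Mael-/- RNA library was above each Mael+/- library, in counts and in CPM. The calls came from these same libraries, so this separation describes the copies and adds no support. All 4 were still called without the first Mael+/- library, and MTB_Mm_2298 lost its call without Mael-/- replicate 3 (adjusted p = 0.0939). None of the 4 made up more than 2.45% of the RNA counts of its subfamily.

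**Figure D4:**
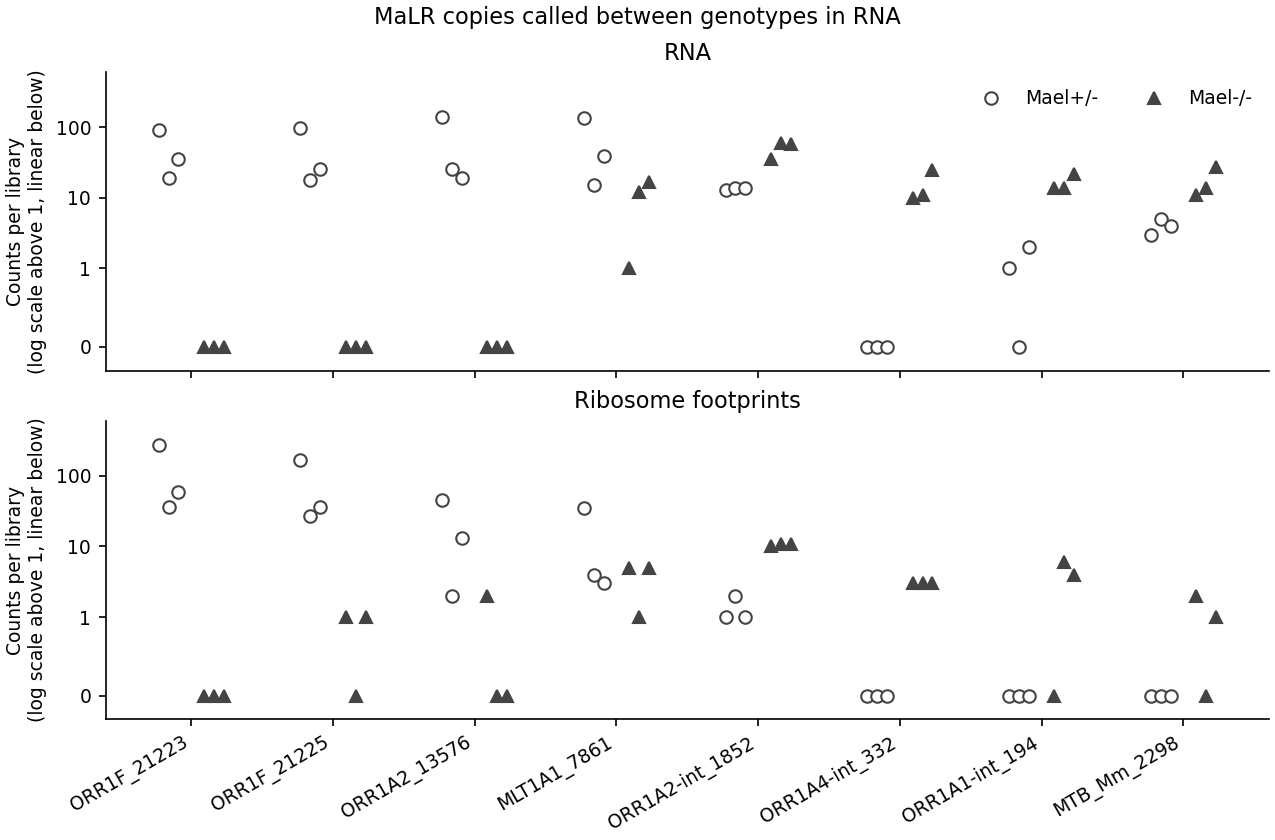
Counts per library of the 8 MaLR copies called in RNA, in RNA (top) and footprints (bottom), on an axis that is linear below 1 and logarithmic above. Open circles are Mael+/- and filled triangles Mael-/- libraries; the 3 copies at the left are at 0 in every Mael-/- RNA library, and the 4 at the right are higher in each Mael-/- RNA library than in any Mael+/- library.

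Some copies were rich in footprints and had little or no RNA. MTC_12772 was the highest MaLR copy in footprints, with 863, 538 and 1201 counts in Mael+/- and 1085, 1001 and 830 in Mael-/-, and it had 0 counts in all 6 RNA libraries. It gave 24.8% of all MTC footprints. ORR1A1-int_814 had 659, 415 and 465 footprint counts in Mael+/- and 909, 594 and 629 in Mael-/-, 80.4% of the footprints of ORR1A1-int, and 1 RNA count in all. MTE2a_4834 had 0 RNA counts and varied widely in footprints, with 80, 553 and 184 counts in Mael+/- and 487, 156 and 85 in Mael-/-, a spread within each genotype larger than the difference between them. ORR1E_4130 gave 15.5% of ORR1E footprints, with 29 RNA counts against 1603 footprint counts. None of these copies was called in footprints.

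Of the 132 MaLR copies with at least 100 footprint counts, 37 (28.0%) had 0 RNA counts. They held 14479 counts, or 6.05% of MaLR footprints. Of these, 14 were MT copies with 9.42% of MT footprints, 12 ORR1 copies with 1.86% and 11 MLT copies with 7.61%. The limit of 100 was chosen after the values were seen. In the reverse direction, 1 of 402 MaLR copies with at least 100 RNA counts had 0 footprints. The share was 49.6% among all repeat copies with at least 100 footprints (1374 of 2768), 47.2% in ERVL, 28.9% in ERVK, 19.2% in ERV1 and 30.8% in LINE-1. Without the 37 copies the ratio of footprints to RNA was 1.23 ± 0.17 for MT and 1.39 ± 0.17 for ORR1, beside 1.36 ± 0.18 and 1.41 ± 0.17 with them. For MTC it went from 1.66 to 1.25 and for MTE2a from 2.19 to 1.68, while ORR1A0 to ORR1A2, MTA_Mm and MTB held none of these copies and did not move.

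**Figure D5:**
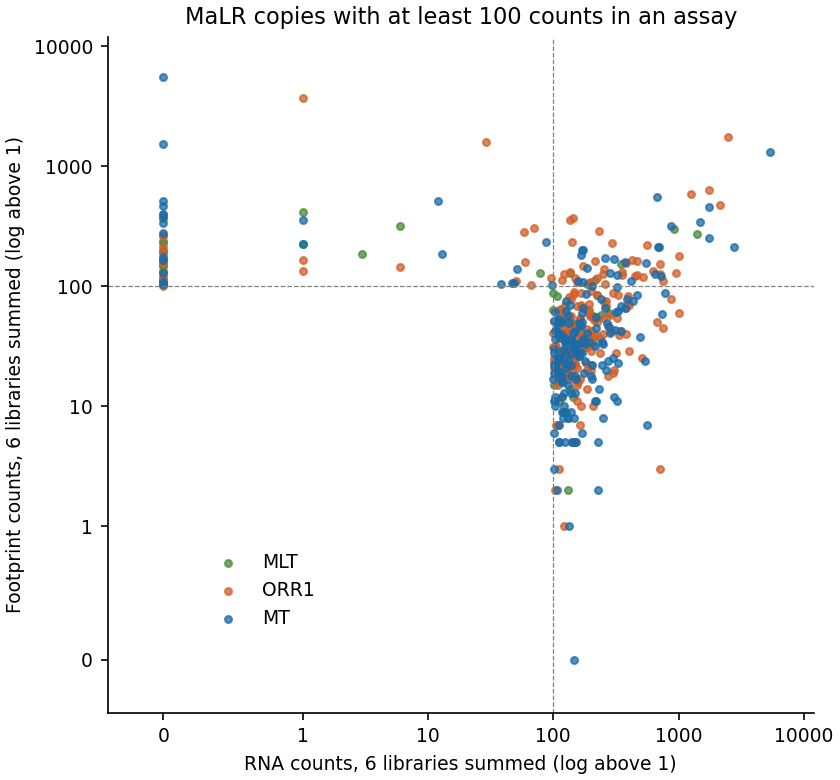
RNA counts against footprint counts, each summed over 6 libraries, for the 465 MaLR copies with at least 100 counts in 1 of the assays (both axes logarithmic above 1). Points are coloured by group and dashed lines mark 100 counts; the column at 0 RNA counts holds 37 copies, the highest of them MTC_12772 at 5518 footprint counts.

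No gene of a list of known silencers of LTR elements passed the test. The list held Trim28, the corepressor recruited by KRAB zinc finger proteins, the H3K9 methyltransferase Setdb1 and its partner Atf7ip, the DNA methyltransferases and Uhrf1, heterochromatin proteins and others. Of its 20 genes, 19 were in the table. In RNA 0 of 19 were called, beside 0.116% of all 14685 genes, and in footprints 0 of 18, beside 8 of all 13500. With so few genes called anywhere, 0 calls in a list this short says little. The log2 fold changes of the list ran from -0.24 to 0.37 in RNA, with a median of 0.013. Trim28 was at 572, 570 and 501 CPM in Mael+/- and 465, 506 and 564 CPM in Mael-/- RNA, and Setdb1 at 233, 226 and 203 CPM and 237, 269 and 231 CPM. Dnmt3l, a cofactor of DNA methylation in prospermatogonia, had 1.02 to 1.79 CPM in all RNA libraries.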

How the data were processed

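Per the labels and the study's methods, linkers were clipped from footprint reads, ribosomal DNA reads were removed with Bowtie (1.2.2), reads were aligned to mm10 with STAR (2.6.0c), and featureCounts (Subread 1.6.4) counted them. Per the methods, genes were counted over whole mRNAs in RNA and only over coding sequence in footprints. The authors deposited raw counts per gene and per repeat copy. How repeat reads were assigned to similar copies or strands, and whether duplicates were collapsed, is not given in the sources used here, so floors and intervals cover counting error only. The deposited DESeq2 (1.24.0) tables of fold changes and p-values were not used.

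Counts of copies were summed by subfamily. RNA and footprints were each fitted over 6 libraries with edgeR (4.0.16) quasi-likelihood tests, and translation efficiency as the interaction over 12, with library sizes and TMM factors of the gene rows, features of low count dropped by edgeR's filterByExpr, and p-values adjusted by Benjamini-Hochberg over every feature tested (called under 0.05). Confidence intervals and SEs come from these fits. DESeq2 (1.42.0) and other scalings, filters and left-out libraries were alternatives. The fits were also run on counts simulated from the same kind of model, with spreads estimated in these data. That run cannot check whether the model suits the data. Over 12537 genes, RNA and footprints of the same extract deviated together clearly in Mael+/- (r = 0.65 to 0.79) and weakly in Mael-/- (r = 0.26 to 0.27). Extracts were treated as pairs in an alternative fit.

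The members, lists and tests were chosen with earlier results of these data known. Named were subfamilies and copies that were called with a mean of at least 20 counts, the most abundant ones (6 MT, 6 ORR1 and 4 MLT subfamilies by RNA, 8 copies by RNA and 5 by footprints) and up to 3 subfamilies each way with the largest fold change.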

Additional observations from a re-analysis of the deposited data

How the results depend on the processing

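No MaLR subfamily was called in RNA or in translation efficiency under any alternative that was run, including leaving out the first Mael+/- extract. In footprints the count of 1 went to 0 with DESeq2, and to 0 to 1 when single libraries were left out. The 8 RNA copies became 4 with a mean of at least 20 counts, where 3 of the others were not tested and MLT1A1_7861 was tested and lost its call (adjusted p = 0.202), and 9 to 12 without single libraries, of which 7 or 8 were the original ones. The 2 footprint copies became 2 to 5 without single libraries and were among them each time, with 5 without Mael-/- replicate 2 or 3 and 4 without Mael+/- replicate 3 or Mael-/- replicate 1. The log2 fold change of MTD ranged from -0.055 to 0.20, and that of ORR1A2 from -0.028 to 0.18, over the fits that each left out 1 RNA library, lowest in both without Mael-/- replicate 1.

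A replicate block, with the number as a term, called 0 subfamilies in RNA, 1 in footprints, 9 RNA copies and 2 footprint copies, and the fit paired by extract called 0 in translation efficiency. Libraries of both genotypes with the same number did not deviate together throughout (r = -0.012 to 0.25). The highest of these values was close to those of the Mael-/- extracts (0.26 to 0.27). The pairing of the 2 assays by number was therefore clear in Mael+/- only.

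Without the highest copy of each subfamily, the footprint to RNA ratio of later over earlier LTRs was 1.88 in ORR1 and 2.18 in MT. Without copies that had footprints but no RNA, an alternative chosen after seeing the data, that ratio was 2.05 in MT. The footprint ratio of MT to ORR1 then fell from 1.10 to 1.01, below 1 in 2 of 6 libraries. ORR1A1-int_814, with 3671 footprint counts and 1 RNA count, stayed in the ORR1 sum. The cause was not tested. Restricting the sums to copies outside exons, and levels per kb, were not run, because the table holds no coordinates.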
